A study of Mus musculus with 16 samples.

Results

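The cytosolic ribosomal protein genes encode the proteins of the ribosome that translates nuclear-encoded mRNA. They were taken as the rows of the expression table with a single symbol made of Rpl or Rps, a number and an optional letter and digit, together with the stalk genes Rplp0, Rplp1 and Rplp2 and with Rpsa. This gave 84 of the 23946 genes in the table. Of these, 43 belong to the large subunit, 31 to the small subunit and 3 to the stalk, and 7 are paralogs (Rpl3l, Rpl7l1, Rpl10l, Rpl22l1, Rpl39l, Rps27l and Rps4l). Rpl36al, and the fusion gene Fau, which encodes a ribosomal protein behind a ubiquitin-like part, fall outside the symbol pattern.

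PolyA RNA was sequenced from the right ventricular (RV) free wall of banded mice, the RV free wall of sham-operated mice, the left ventricular (LV) free wall of banded mice and the LV free wall of sham-operated mice, with 4 libraries in each group. All mice were adult FVB males, an inbred strain, aged 10 to 13 weeks. Pulmonary artery banding narrows the vessel into which the RV pumps and was used by the study to bring about RV failure. The banded libraries carry the label PS, which was read as banded because the protocol names only banding and a sham operation. The labels do not say that the libraries of a group came from separate mice, so the p-values measure only the spread between these libraries, which may be technical. In bulk tissue, fewer cells of a type and less RNA per cell cannot be told apart.

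A ribosome is assembled from ribosomal RNA and a fixed set of proteins, mostly in single copies, in a large subunit that forms peptide bonds and a small subunit that reads the mRNA. The stalk of the large subunit is built on Rplp0 and carries the acidic proteins Rplp1 and Rplp2, which recruit the GTPases of translation. Most ribosomal protein mRNAs of vertebrates begin with a run of pyrimidines, the TOP tract, through which mTOR signalling controls their translation. In striated muscle, Rpl3l is made beside or in place of its parent Rpl3, a protein that reaches towards the peptidyl transferase centre. Mammalian genomes also hold many processed pseudogenes of ribosomal protein genes, which share most of their sequence with the parent mRNA.

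The values are FPKM, fragment counts divided by transcript length and by library depth, and were compared as log2(FPKM + 1). Estimated depths lay between 2.37e+06 and 5.31e+06 fragments in RV banded, 3.35e+05 and 1.33e+06 in RV sham, 3.35e+06 and 9.44e+06 in LV banded and 1.88e+06 and 4.22e+06 in LV sham libraries, so low values rest on the fewest fragments in RV sham libraries. The median of all 12100 tested genes stood 0.26 higher in RV banded than in RV sham libraries and 0.33 higher in LV banded than in LV sham libraries (log2, as deposited), so each test was also run on values rescaled by a factor per library, and a gene was called where its adjusted p was under 0.05 in the same direction on both scales. The precursor of ribosomal RNA, Rn45s, had a value of 0 in 5 banded libraries (RV PS_9561 and PS_9564, LV PS_9552, PS_9553 and PS_9561). These 5 libraries also had the highest scale factors, 1.22 to 1.28, against 0.84 to 1.02 in the 11 others. The scale of the deposited values thus differed among banded libraries along with Rn45s, and the cause was not tested. The 11 other libraries include 1 LV banded library, and in the 3 comparisons below that use it none of 11416 genes was called there. The ribosomal protein medians in those libraries were 0.99 in the LV (1.20 with all libraries), -1.26 for the difference between ventricles (-1.29) and -0.71 between banded ventricles (-0.95). In the RV the median there was -0.24 (-0.05 with all libraries) and between sham ventricles 0.48 (0.37). Fewer ribosomal protein genes and fewer of all genes were called in the RV and between sham ventricles than with all libraries. The 7 cardiomyocyte markers summed to 16902 to 24121 FPKM in RV banded, 26397 to 29213 in RV sham, 36249 to 44555 in LV banded and 17744 to 28017 in LV sham libraries, and none of them was at 0. Among these markers Tnni3 and Myl2 were called lower in the RV after banding and higher in the LV, as ribosomal protein genes were, and the part of this in the results below was not tested. The 7 pancreatic islet markers summed to 63.9 to 155 FPKM in RV banded, 639 to 2146 in RV sham, 24.4 to 59.1 in LV banded and 87.2 to 2095 in LV sham libraries, whose part was not tested either.

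Transcript levels differed widely among the 84 genes, although the ribosome holds most of its proteins in equal numbers. Mean FPKM over the 16 libraries was highest for Rplp1 (858), Rps21 (666), Rps9 (372), Rps26 (371) and Rps15 (358). In contrast, 31 genes averaged under 3 FPKM and 40 were listed at 0 in at least 1 library. Rps28, a small-subunit protein of all cells, was listed at 0 in all 16 libraries, as were Rpl10l and Rpl39l, paralogs known from the mouse testis. Since genes that every cell uses are listed at 0, a 0 here says only how the gene is listed.

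The low values went with coding sequence that other genes also carry. The share of each gene's coding 50-base words that also occur in annotated transcripts of other genes was above 75% in 29 of the 31 genes under 3 FPKM, the exceptions being Rpl10l (12.5%) and Rpl39l (0%). Among the 20 genes at 100 FPKM or more, 3 had such a share: Rps20 (85.7%), Rps25 (98.2%) and Rpl38 (100%). Of the 27 genes with a share of at most 75%, the median of the mean levels was 159 FPKM and 17 reached 100 FPKM, against a median of 2.56 FPKM and 3 genes at 100 FPKM among the 57 genes with a higher share. Spearman's rho between share and mean level was -0.60 over the 84 genes and -0.74 over the 77 without paralogs, given as a description across genes, which are not independent replicates. How the authors' counting treated reads that match several places is not given in the sources used here, so levels of genes with a high share are uncertain.

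**Figure D1:**
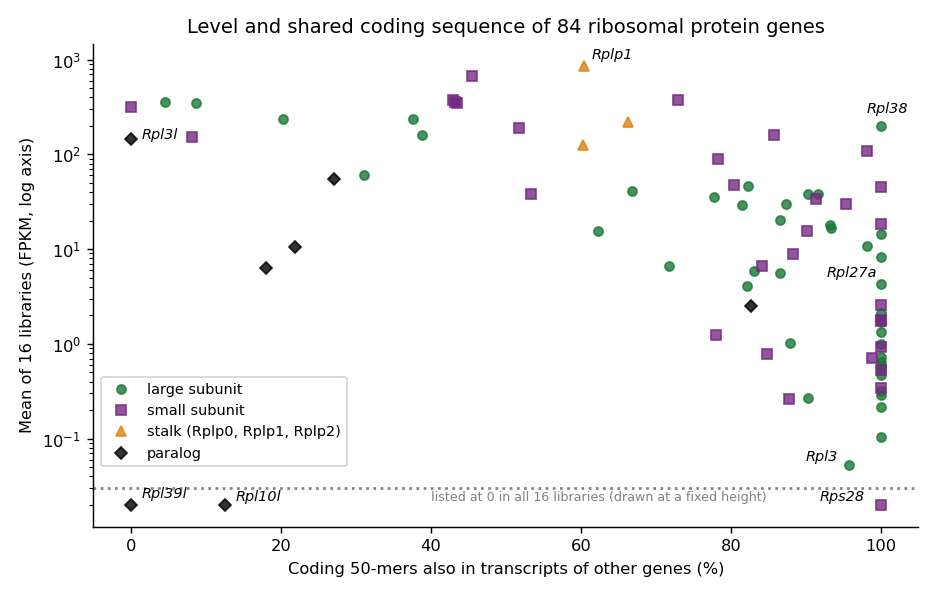
Mean FPKM of each ribosomal protein gene over 16 libraries (log axis) against the share of its coding 50-base words that also occur in transcripts of other genes (percent). Points are 84 genes marked by class, those listed at 0 in every library are drawn at a fixed height below the dotted line, and 29 of the 31 genes under 3 FPKM lie to the right of 75%.

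Rpl3 and its muscle paralog Rpl3l differed widely in this share, and a stretch of their coding sequence is given to show how closely each resembles sequence elsewhere. The 60 bases come from GENCODE M21 transcripts on the mouse GRCm38 build. They are coding bases 58 to 117 of Rpl3 on chromosome 15 and of Rpl3l on chromosome 17, and bases 59 to 118 of the transcript of Rpl3-ps1, a processed pseudogene of Rpl3 on chromosome X. Capitals mark the 17 bases at which Rpl3l differs from Rpl3.
Rpl3: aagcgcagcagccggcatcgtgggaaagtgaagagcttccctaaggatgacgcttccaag
Rpl3-ps1: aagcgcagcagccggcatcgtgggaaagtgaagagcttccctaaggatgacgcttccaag
Rpl3l: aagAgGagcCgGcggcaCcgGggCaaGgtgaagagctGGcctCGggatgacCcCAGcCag
In this stretch the pseudogene is identical to Rpl3. Over the whole coding sequence, 95.7% of the 50-base words of Rpl3 also occur in transcripts of other genes, and 91.4% occur in Rpl3-ps1 alone. None of the words of Rpl3l (0%) occurs elsewhere, and 74.8% of its aligned coding bases equal those of Rpl3. Rpl3 was listed at 0, 0.127, 0.141 and 0 FPKM in RV banded libraries and at 0 in all 4 RV sham libraries. In LV banded libraries it was listed at 0, 0.0847, 0.145 and 0 FPKM, and in LV sham libraries at 0, 0.353, 0 and 0 FPKM. Rpl3 therefore gave no usable level here, and 15 other genes also missed the minimum of 1 FPKM in at least 4 libraries, which left 68 genes for the tests. The 15 were Rpl5, Rpl9, Rpl10, Rpl10a, Rpl10l, Rpl12, Rpl24, Rpl27, Rpl28, Rpl29, Rpl39l, Rps6, Rps18, Rps28 and Rpsa.

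After banding, a limited set of ribosomal protein genes was lower in the RV, led by the muscle paralog Rpl3l and the stalk protein Rplp2, and 2 small-subunit genes were higher. In RV banded against RV sham libraries, 10 of the 68 genes tested (14.7%) were called lower, against a background of 4.93% of all tested genes, and 2 (2.94%) were called higher, against 10.5%. Genes of similar transcript length (556.5 to 985 nt, 778 other genes) were called lower in 12.1% of cases, which is near the share among ribosomal protein genes. The genes called lower included Rpl41, Rpl8 and Rpl38 of the large subunit, Rps7, Rps10 and Rps14 of the small subunit, Rplp1 and Rplp2 of the stalk, and Rpl3l.

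Rplp2 stood at 127, 160.3, 149 and 121 FPKM in RV banded libraries, against 306, 168, 308 and 343 FPKM in RV sham libraries. All 4 banded values lay below all 4 sham values, the lowest sham library coming close to the highest banded one. The log2 difference was -0.97 ± 0.20 (SE, n = 4 each, limma adjusted p = 0.0045). Its partner Rplp1 stood at 402, 649, 747 and 435 FPKM in RV banded libraries, against 1345, 564, 933 and 1115 FPKM in RV sham libraries, and the groups overlapped through the second sham library. The difference was -0.80 ± 0.26 (SE, limma adjusted p = 0.0427), and this call was lost without RV banded library PS_9552 or PS_9564 or sham library 1, 3 or 4. Rplp0, the base of the stalk, averaged 99.3 ± 7.78 FPKM in RV banded and 126 ± 16.6 FPKM in RV sham libraries (SD, n = 4 each) and was not called.

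Among large-subunit genes, Rpl41, which encodes a very short basic peptide, stood at 260.4, 211, 324 and 174 FPKM in RV banded libraries, against 608, 419.5, 399 and 418 FPKM in RV sham libraries. The groups did not overlap, and sham library 1 was far above the other sham libraries. Its log2 difference was -0.94 ± 0.21 (SE, limma adjusted p = 0.00606). Rpl8, a protein near the peptidyl transferase centre, stood at 278, 271, 288 and 183 FPKM in RV banded libraries, against 545, 362, 397 and 481 FPKM in RV sham libraries. Every banded value was below every sham value, with a log2 difference of -0.81 ± 0.20 (SE, limma adjusted p = 0.0111). Rpl38, known in the mouse for its part in the translation of Hox mRNAs, was called at -0.89 ± 0.28 (SE, limma adjusted p = 0.0365), a call that was lost when RV banded library PS_9552, PS_9561 or PS_9564 or sham library 1 or 3 was left out.

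Among small-subunit genes, Rps7 stood at 17.7, 13.2, 22.3 and 18.6 FPKM in RV banded libraries, against 49.6, 35.4, 29.9 and 51.8 FPKM in RV sham libraries. The groups did not overlap, and the log2 difference was -1.16 ± 0.29 (SE, limma adjusted p = 0.0123). Rps10, a protein of the subunit's head that is ubiquitinated when ribosomes collide, stood at 22.7, 38.3, 47.4 and 33.9 FPKM in RV banded libraries, against 41.8, 86.9, 104 and 57.6 FPKM in RV sham libraries. Banded library PS_9561 lay above the lowest sham library, so the groups overlapped, and the difference was -0.97 ± 0.25 (SE, limma adjusted p = 0.0156). Rps14, which lines the platform of the small subunit, stood at 159.6, 109.5, 183 and 115 FPKM in RV banded libraries, against 325, 188, 170.3 and 238 FPKM in RV sham libraries. The groups overlapped, and the difference of -0.69 ± 0.21 (SE, limma adjusted p = 0.0372) was not called without RV banded library PS_9553 or PS_9564 or sham library 1 or 4.

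The 2 genes called higher in the RV were low ones with 0 among their sham values. Rps29, a zinc-binding protein of the small subunit, was listed at 36.8, 17.1, 15.2 and 14.9 FPKM in RV banded libraries, against 31.2, 0, 0 and 0 FPKM in RV sham libraries. Sham library 1 was above 3 of the banded libraries while the other sham libraries were listed at 0, so the fitted log2 difference of 3.11 (limma adjusted p = 0.0138) depends on the pseudocount and is no bound. Rps3a1 was listed at 6.15, 7.97, 11.7 and 10.8 FPKM in RV banded libraries, against 2.35, 0, 4.59 and 2.86 FPKM in RV sham libraries. All banded values were above all sham values (1.77 ± 0.47, SE, limma adjusted p = 0.0174). The call for Rps29 was lost without RV banded library PS_9552 or sham library 3 or 4, and that for Rps3a1 without RV banded library PS_9561 or PS_9564. Rps4x and Rpl15 also had banded values above all sham values. Rps4x stood at 15.3, 16.8, 17.3 and 14.1 FPKM in RV banded libraries, against 7.04, 10.8, 13.9 and 6.19 FPKM in RV sham libraries (0.74 ± 0.31, SE, limma adjusted p = 0.104), and Rpl15 at 0.168 to 0.396 FPKM in RV banded libraries and at 0 in all RV sham libraries.

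The other 56 genes tested did not pass the test in the RV. As deposited, 30 of the 68 differences were above 0 and 38 below. All banded values lay below all sham values for 7 of the 68 genes (10.3%, against 5.07% of all tested genes) and above them for 3 (4.41%, against 12.6%). Their median was -0.05 as deposited and -0.20 rescaled, but 0.32 with scaling to equal sums (TPM), where the median of all genes was 0.64. With that scaling 12 ribosomal protein genes were called higher and 1 lower, beside 5679 higher and 142 lower among all 12100 genes, so the balance of calls between the directions depends on the scale. Set against the median of all genes, the ribosomal protein median stood at -0.315 to -0.214 under the 5 scalings tried. The 778 other genes of similar length also lay below the median of all genes. Their medians were 0.0068 as deposited and -0.16 rescaled, where all genes stood at 0.26 and 0.11. The lower RV median is thus not particular to ribosomal protein genes. Of the 20 ribosomal protein genes at 100 FPKM or more, 7 were called lower and 0 higher (0 higher at an unadjusted p under 0.05 as well). The share of all genes at that level was not computed. With a minimum of 5 FPKM in at least 4 libraries, 12 of 53 ribosomal protein genes and 551 of all 7909 genes were called lower. Rpl13a, which in human cells joins the GAIT complex that silences mRNAs, and Rps3, which sits where mRNA enters the small subunit, were among the abundant genes not called. Rpl13a averaged 142 ± 25.4 FPKM in RV banded and 141 ± 12.1 FPKM in RV sham libraries, and Rps3 averaged 132 ± 34.3 FPKM in RV banded and 112 ± 21.4 FPKM in RV sham libraries (SD, n = 4 each). The lowest of all differences, that of Rpl36 (-1.52 ± 0.61, SE, limma adjusted p = 0.0913), was not called, with 0, 8.05, 8.18 and 5.08 FPKM in RV banded libraries against 12.6, 16.4, 25.8 and 4.43 FPKM in RV sham libraries. A fit to the RV libraries alone called 0 of the 68 genes higher and 6 lower, in place of 2 and 10. Among all genes that fit called 488 higher and 322 lower. Correction for transcript length and GC content called 2 higher and 17 lower, beside 772 higher and 1088 lower of 11554 genes.

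**Figure D2:**
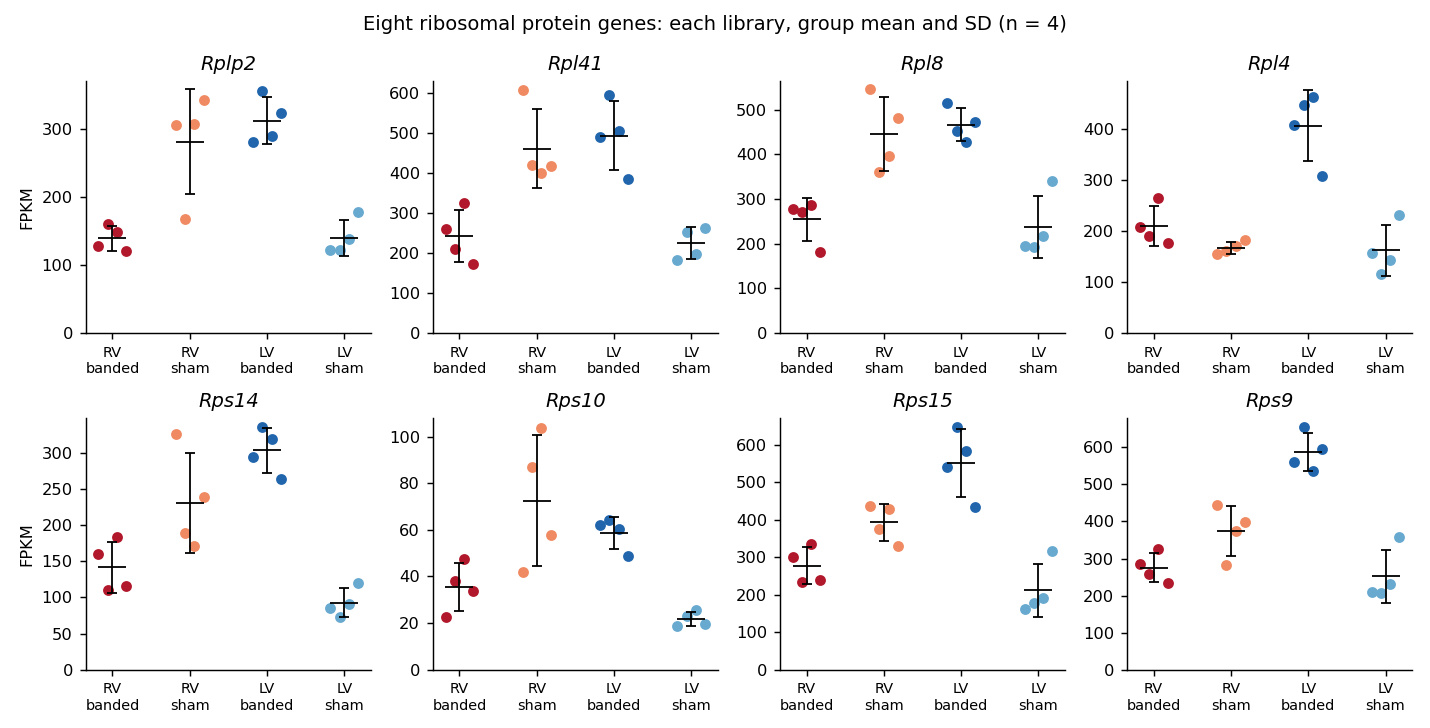
FPKM of 8 ribosomal protein genes in each library, with the group mean and SD (n = 4). Rplp2, Rpl41 and Rpl8 are lower in all RV banded than in all RV sham libraries, whereas all 8 genes are higher in each LV banded than in each LV sham library.

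In the LV, which the band does not load directly, many ribosomal protein genes were higher in banded mice, among them Rps14, Rpl13a and Rps15. In LV banded against LV sham libraries, 20 of 68 genes (29.4%) were called higher, against 2.44% of all tested genes and 4.11% of genes of similar length. None was called lower (0 at an unadjusted p under 0.05), against 0.298% of all tested genes. The genes called comprised 12 of the small subunit, 7 of the large subunit and Rplp0, and no paralog. As deposited, 67 of 68 differences were above 0 with a median of 1.20, against 0.33 for all genes, and rescaled the medians were 0.84 and 0.01. The other genes of similar length had medians of 0.55 as deposited and 0.20 rescaled.

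Rps14, Rpl13a and Rps15 were among the genes with the smallest p-values. Rps14 stood at 294, 335, 319 and 264 FPKM in LV banded libraries, against 85.7, 73.3, 90.8 and 120.4 FPKM in LV sham libraries (1.72 ± 0.21, SE, limma adjusted p = 0.000701). Even its lowest banded value, in library PS_9564, was well above its highest sham value, in library 4. Rpl13a stood at 268, 275, 268 and 184 FPKM in LV banded libraries, against 104, 83.5, 86.9 and 134 FPKM in LV sham libraries (1.28 ± 0.18, SE, limma adjusted p = 0.000965). Rps15, whose tail reaches the decoding site, stood at 539, 646, 584 and 434 FPKM in LV banded libraries, against 163, 179, 191 and 317 FPKM in LV sham libraries (1.41 ± 0.20, SE, limma adjusted p = 0.00109). Neither gene's groups overlapped, and banded library PS_9564 and sham library 4 again came closest to each other. Rpl4, which lines the exit tunnel for the growing peptide, stood at 407, 447, 461 and 308 FPKM in LV banded libraries, against 157, 115, 143 and 232 FPKM in LV sham libraries (1.35 ± 0.20, SE, limma adjusted p = 0.00109). Rps19, whose human gene is mutated in Diamond-Blackfan anaemia, averaged 52.3 ± 7.65 FPKM in LV banded and 23.0 ± 4.37 FPKM in LV sham libraries (SD, n = 4 each) and was called at 1.16 ± 0.17 (SE, limma adjusted p = 0.00109). Of the 68 genes tested, 45 (66.2%) had all LV banded values above all LV sham values, against 22.2% of all tested genes, and 0 had the reverse, against 0.942%.

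The extremes of the LV comparison were genes with variable values. Rps16 had the highest difference, 2.36 ± 0.98 (SE, limma adjusted p = 0.113), with 47.5, 129, 105 and 101 FPKM in LV banded libraries against 5.86, 17.3, 34.3 and 21.3 FPKM in LV sham libraries. Its groups did not overlap, but in RV sham libraries its values ran from 0 to 73.0 FPKM. Rps12 had the lowest, -0.53 ± 0.28 (SE, limma adjusted p = 0.218). The size of the LV count depended on the scale and on single libraries. As deposited alone, 42 genes were called higher, beside 1725 of all genes, and with scaling to equal sums 4, beside 64. Without LV sham library 1, 2 or 3 the counts were 8, 4 and 6, beside 87, 34 and 79 of all genes. Without LV banded library PS_9553 or PS_9561 they were 5 and 9, beside 46 and 84. The number of all genes called higher was 295 in the reported fit, so it moved along with the ribosomal protein count. Rpl13a, Rpl14 and Rps14 were among those called without each library in turn.

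The effect of banding therefore differed between the ventricles for many of these genes, which was tested directly as the banded minus sham difference in the RV minus that in the LV. Of 68 genes, 27 (39.7%) were called lower for this difference, against 3.45% of all tested genes and 12.9% of genes of similar length. None was called higher (0 at an unadjusted p under 0.05), against 0.529% of all tested genes. All 3 stalk genes were called, with 14 small-subunit and 9 large-subunit genes and Rpl3l. The median over the 68 genes was -1.29 as deposited and -1.08 rescaled, against -0.07 and 0.11 for all genes, and it was below 0 under every scaling tried (-0.63 with scaling to equal sums, where all genes stood at 0.47). The other genes of similar length had medians of -0.53 as deposited and -0.35 rescaled.

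Rps14 had the lowest difference between effects, -2.40 ± 0.30 (SE, limma adjusted p = 0.00069). Rplp2 followed among the called genes by p-value at -2.13 ± 0.28 (SE, limma adjusted p = 0.00069), with 281, 357, 289.6 and 323 FPKM in LV banded libraries against 122, 122, 138 and 178 FPKM in LV sham libraries beside its lower values in the RV. Rpl41 stood at -2.07 ± 0.29 (SE, limma adjusted p = 0.000825), with 489.6, 594, 504 and 385 FPKM in LV banded against 184, 254, 199 and 264 FPKM in LV sham libraries. Rps15 stood at -1.92 ± 0.28 (SE, limma adjusted p = 0.00101). For Rplp2 and Rpl41, all banded values lay below all sham values in the RV and above all sham values in the LV. Abundant genes took most of the calls: 18 of the 20 genes at 100 FPKM or more were called, 9 of the 31 genes between 5 and 100 FPKM, and 0 of the 17 tested genes under 5 FPKM (0 at an unadjusted p under 0.05), for which 1 FPKM rests on about 0.268 to 7.55 fragments for a transcript of 1000 nt. With a minimum of 5 FPKM in at least 4 libraries, 30 of 53 ribosomal protein genes and 507 of all 7909 genes were called lower. Shares of all genes within the level classes were not computed, so the rise with level is not shown to be particular to ribosomal protein genes. The calls held for 22 of the 27 genes without each library in turn. With scaling to equal sums 4 ribosomal protein genes were called lower and 0 higher, beside 28 lower and 726 higher among all 12100 genes.

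**Figure D3:**
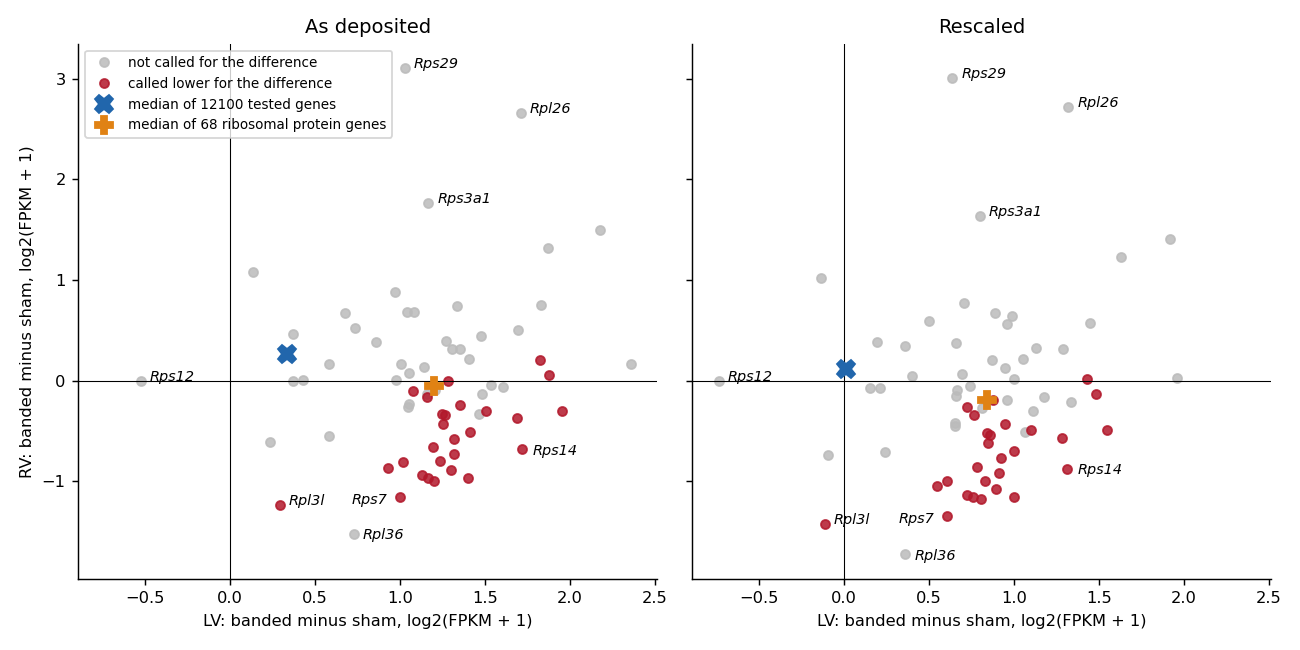
Banded minus sham difference in log2(FPKM + 1) in the RV (vertical) against that in the LV (horizontal) for 68 ribosomal protein genes, as deposited (left) and rescaled (right). Red points are the 27 genes called lower for the difference between the effects, the cross and plus mark the medians of the 12100 tested genes and of the 68 genes, and nearly all points lie to the right of 0 on the horizontal axis.

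Summed over the 84 genes, ribosomal protein mRNA reached 3889 to 6263 FPKM in RV banded libraries (mean 4981 ± 976, SD), against 5549 to 8399 FPKM in RV sham libraries (7130 ± 1178). It reached 9384 to 12767 FPKM in LV banded libraries (10741 ± 1437), against 3682 to 5894 FPKM in LV sham libraries (4397 ± 1030). The RV groups overlapped between banded library PS_9561 and sham library 2, whereas the LV groups were far apart. Rescaled, the sums were 3085 to 5420 in RV banded, 6373 to 8878 in RV sham, 8022 to 10352 in LV banded and 3857 to 6468 in LV sham libraries, and neither pair overlapped. The 5 most abundant genes of a library supplied 35.5% to 45.0% of its sum. The summed cardiomyocyte markers were likewise highest in LV banded libraries and lower in each RV banded than in each RV sham library, and their part was not tested.

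Among the 20 most abundant genes, 12 had group means in the order LV banded, RV sham, RV banded and LV sham from high to low. A further 4, with the highest mean in LV banded and the second in RV sham, had RV banded below LV sham, and 3 had RV banded above RV sham. The remaining gene, Rpl3l, was the only one of the 20 with its highest mean in RV sham libraries. The ratio of summed small-subunit to summed large-subunit FPKM was 1.0001 to 1.13 in RV banded, 0.897 to 1.06 in RV sham, 1.12 to 1.16 in LV banded and 0.894 to 1.08 in LV sham libraries. All LV banded ratios were above all LV sham ratios, whereas the RV groups overlapped.

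**Figure D4:**
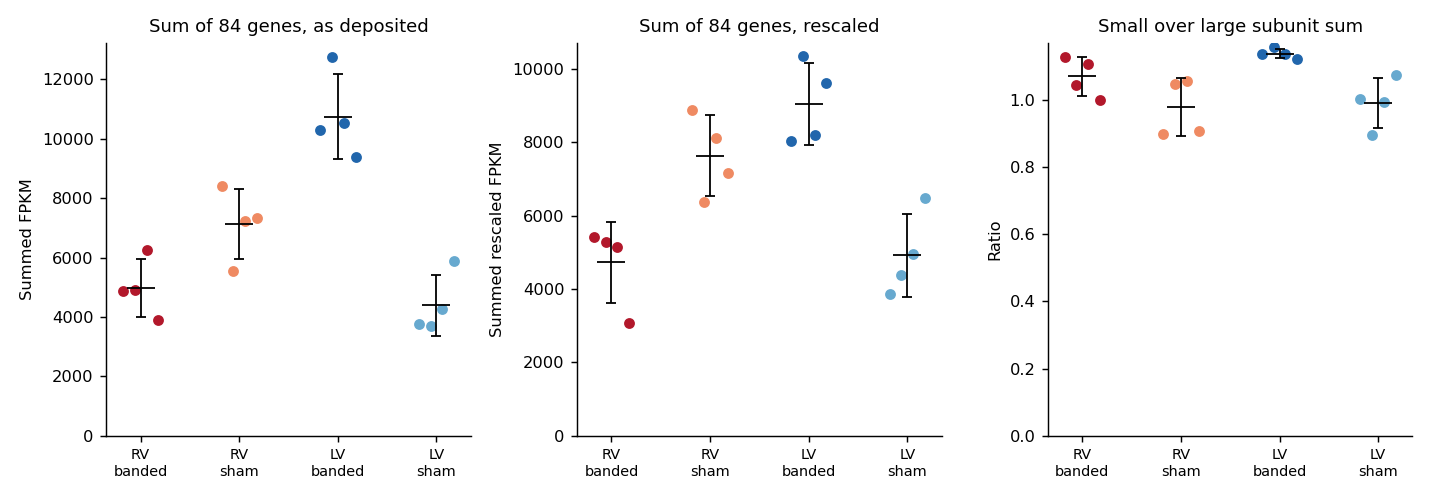
Sum over 84 ribosomal protein genes in each library as deposited (left, FPKM) and rescaled (middle), and the ratio of small-subunit to large-subunit sums (right), with group mean and SD (n = 4). LV banded libraries have the highest sums, 9384 to 12767 FPKM as deposited.

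The ventricles of sham mice also differed, in a smaller set. In RV sham against LV sham libraries, 10 of 68 genes were called higher (14.7%), against 2.55% of all tested genes and 8.48% of genes of similar length, and 1 was called lower, against 1.33%. Rps10 stood at 41.8, 86.9, 104 and 57.6 FPKM in RV sham libraries, against 18.9, 23.0, 25.5 and 19.6 FPKM in LV sham libraries. The groups were well apart (1.62 ± 0.25, SE, limma adjusted p = 0.00791). Rps14 was higher by 1.28 ± 0.21, Rpl41 by 1.03 ± 0.21, Rplp2 by 0.97 ± 0.20 and Rpl8 by 0.93 ± 0.20 (SE, limma adjusted p = 0.0115, 0.0163, 0.019 and 0.0211), and Rps19, Rps15, Rpl18, Rps7 and Rpl14 were also called. Of these, Rps10 and Rps14 were called without each library in turn. All RV sham values lay above all LV sham values for 10 of the 68 genes (14.7%, against 6.4% of all tested genes) and below them for 1 (1.47%, against 5.04%). These libraries are also those to which the banded libraries were compared, so the sham values enter both comparisons. A fit to the sham libraries alone called 0 of the 68 genes, and 22 higher and 18 lower among all genes. With scaling to equal sums 1 ribosomal protein gene was called higher and 5 lower, beside 38 higher and 2970 lower among all genes. Without LV sham library 1 or 3 the count was 3. In those fits 76 and 59 of all genes were called higher and 22 and 21 lower.

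Rps12 was the gene called lower in RV sham libraries (-1.51 ± 0.28, SE, limma adjusted p = 0.0137), and it was listed at 0 in all 8 RV libraries. Rps12 met the minimum of 1 FPKM in at least 4 libraries only through LV libraries. Its entry into the test thus depended on the ventricle where it is higher, and the call is no support for a difference. In LV banded libraries it was listed at 1.47, 1.14, 0.496 and 0.948 FPKM, and in LV sham libraries at 3.05, 3.66, 0.967 and 0.782 FPKM. Rpl26 had the lowest difference, -4.16 ± 1.26 (SE, limma adjusted p = 0.0691, not called). It was listed at 45.7, 34.5, 0.00537 and 0.00642 FPKM in RV banded libraries and at 0.00917 to 0.0137 FPKM in all RV sham libraries. In LV banded libraries it stood at 63.7, 50.4, 35.4 and 100.04 FPKM and in LV sham libraries at 0.0119, 31.9, 42.7 and 72.6 FPKM. Values of Rpl26 thus fell into a near-absent and an abundant class within groups, with nothing between.

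In banded mice, many ribosomal protein genes were lower in the RV than in the LV. In RV banded against LV banded libraries, 18 of 68 genes were called lower (26.5%), against 1.39% of all tested genes and 4.24% of genes of similar length. None was called higher (0 at an unadjusted p under 0.05), against 0.182%. As deposited, all 68 differences were below 0. All RV banded values lay below all LV banded values for 39 genes (57.4%, against 8.16% of all tested genes) and above them for 0 (against 2.43%). Rps9 stood at 285, 258, 326 and 234 FPKM in RV banded libraries, against 561, 656, 537 and 595 FPKM in LV banded libraries. Its groups were far apart (-1.09 ± 0.19, SE, limma adjusted p = 0.00593). Rplp2 was lower at -1.16 ± 0.20 (SE, limma adjusted p = 0.00593), and its groups did not overlap either. The count fell to between 1 and 6 without any of RV banded libraries PS_9553, PS_9561 and PS_9564 or any LV banded library. In those fits 23 to 106 of all genes were called lower. No ribosomal protein gene kept its call without each library in turn. With scaling to equal sums 0 ribosomal protein genes and 0 of all 12100 genes were called.

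Rpl3l, the muscle paralog, had its lowest levels in the RV of banded mice. It stood at 67.3, 66.7, 98.0 and 98.5 FPKM in RV banded libraries, against 202, 153, 203 and 219 FPKM in RV sham libraries. In the LV it stood at 237, 146, 139.6 and 167 FPKM in banded libraries, against 149, 118, 135 and 150.4 FPKM in sham libraries. All RV banded values were below every value of the other 3 groups, and the LV groups overlapped. The means were 82.6 ± 18.02, 194 ± 28.4, 172 ± 44.7 and 138 ± 15.2 FPKM in RV banded, RV sham, LV banded and LV sham libraries (SD, n = 4 each).

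In the RV, Rpl3l was lower by a log2 difference of -1.24 ± 0.19 as deposited and -1.43 rescaled (SE, limma adjusted p = 0.000621 and 6.13e-05). This was the smallest p-value of any ribosomal protein gene in the comparison, and the call was kept without each of the 8 libraries in turn (highest adjusted p = 0.00299) and under all 13 other settings tried (highest adjusted p = 0.0146). In the LV, the difference of 0.29 ± 0.19 as deposited and -0.12 rescaled was not called (limma adjusted p = 0.317 and 0.75). The difference between the effects was -1.53 ± 0.27 (SE, limma adjusted p = 0.00289), a call lost with scaling to equal sums and with the libraries that have an Rn45s value, where no gene was called (highest adjusted p = 0.111). RV sham libraries did not differ from LV sham libraries by the test (0.48 ± 0.19, SE, limma adjusted p = 0.154). RV banded libraries were lower than LV banded libraries by -1.04 ± 0.19 (SE, limma adjusted p = 0.00727), a call that was lost without LV banded library PS_9552 (adjusted p = 0.0524).

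**Figure D5:**
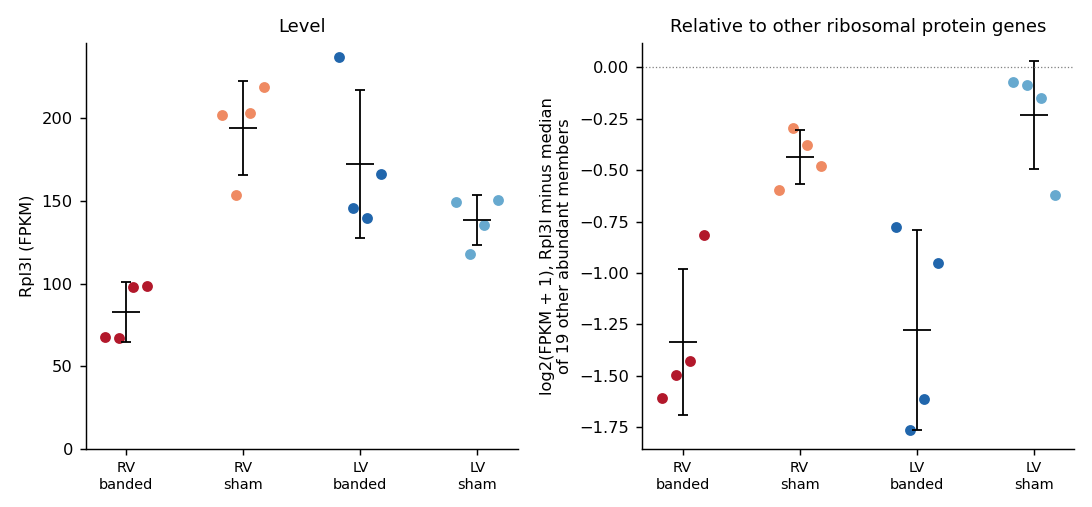
Rpl3l in each library (left, FPKM) and its log2(FPKM + 1) minus the median of the 19 other ribosomal protein genes at 100 FPKM or more in the same library (right), with group mean and SD (n = 4). RV banded libraries hold the lowest FPKM, 66.7 to 98.5, and in the right panel the values of both banded groups lie below those of both sham groups.

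Set against the median of the 19 other genes at 100 FPKM or more in the same library, Rpl3l lay at -1.61 to -0.81 (log2) in RV banded libraries, against -0.60 to -0.30 in RV sham libraries. In LV banded libraries it lay at -1.77 to -0.78, against -0.62 to -0.07 in LV sham libraries. The banded values were below the sham values in either ventricle, given as a description. The level of Rpl3l itself was called lower in the RV and was not called in the LV. As a share of all ribosomal protein FPKM, Rpl3l made up 1.36% to 2.53% in RV banded and 2.40% to 2.99% in RV sham libraries, and 1.14% to 2.31% in LV banded and 2.55% to 3.98% in LV sham libraries. The log2 ratio of Rpl3l to Rpl3, each with 1 FPKM added, differed by -1.33 between RV banded and RV sham libraries (two-sided exact permutation p = 0.0286, the smallest that 4 against 4 libraries allow, adjusted p = 0.143 over 30 paralog tests) and by 0.32 between LV banded and LV sham libraries (exact p = 0.4, adjusted p = 0.632). With Rpl3 listed at or near 0, this ratio restates the level of Rpl3l.

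No paralog, Rpl3l included, passed the test against its parent after adjustment over the 30 tests, in which 4 against 4 libraries cannot go below an unadjusted p of 0.0286. Rps27l, a p53-induced paralog, stood at 49.3, 43.0, 68.9 and 26.4 FPKM in RV banded and 49.8, 35.5, 80.4 and 69.0 FPKM in RV sham libraries. In the LV it stood at 65.1, 111, 85.5 and 68.3 FPKM in banded and 24.9, 20.2, 43.9 and 30.1 FPKM in sham libraries. Its RV groups overlapped and its LV groups did not, and its parent Rps27 was listed at 0 to 4.58 FPKM. The banding effect on its ratio to Rps27 differed between RV and LV by -2.73 on the log2 scale (exact permutation p = 0.00612, adjusted p = 0.0918, where 0.000408 was the smallest possible). Rps4l stood at 7.58, 6.76, 4.75 and 4.39 FPKM in RV banded and 4.74, 14.0, 10.4 and 8.63 FPKM in RV sham libraries, and its ratio to Rps4x differed by -1.29 (exact permutation p = 0.0286, adjusted p = 0.143). Rpl7l1 averaged 10.7 ± 2.31 FPKM in RV banded and 7.17 ± 1.69 FPKM in RV sham libraries (SD, n = 4 each), and its ratio to Rpl7 differed by 0.13 in the RV and -0.53 in the LV (exact permutation p = 0.686 and 0.0571). Rpl22l1 was listed at 3.28, 3.36, 4.20 and 1.58 FPKM in RV banded and 0, 0, 5.46 and 0 FPKM in RV sham libraries, and at 1.99 to 10.9 FPKM in LV banded and 0 to 1.12 FPKM in LV sham libraries. Rpl36al, which averaged 70.6 FPKM over all libraries, gave ratios to Rpl36a that differed by -0.69 in the RV and -0.29 in the LV (exact permutation p = 0.743 and 0.543).

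The pyrimidine run at the transcription start, which the choice by symbol did not use, was looked for in RefSeq windows around annotated starts (GRCm38.p6). Of 63 ribosomal protein genes with a window, 24 (38.1%) had an unbroken sense-strand run of at least 8 C or T bases with a base within 5 bases of the start, against 3068 of 27025 genes (11.4%). The median longest run was 6 bases against 4. The windows below show 30 bases before and 20 bases from the annotated start for genes described above, with the run in capitals. The first 5 have a run of at least 8 bases and the others do not, as is the case for 39 of the 63 genes.
Rpl4, chr9:64173357-64173406, plus strand: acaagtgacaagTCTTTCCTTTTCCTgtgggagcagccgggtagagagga
Rps10, chr17:27635225-27635274, minus strand: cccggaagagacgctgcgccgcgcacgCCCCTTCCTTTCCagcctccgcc
Rplp2, chr7:141447621-141447670, plus strand: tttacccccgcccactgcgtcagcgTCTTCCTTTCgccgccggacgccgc
Rpl38, chr11:114668550-114668599, plus strand: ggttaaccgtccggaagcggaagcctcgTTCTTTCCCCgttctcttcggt
Rps26, chr10:128626487-128626536, minus strand: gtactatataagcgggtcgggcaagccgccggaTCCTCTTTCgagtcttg
Rpl41, chr10:128549149-128549198, minus strand: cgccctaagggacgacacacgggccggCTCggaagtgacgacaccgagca
Rps15, chr10:80292401-80292450, plus strand: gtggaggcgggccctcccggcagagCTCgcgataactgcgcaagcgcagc
Rpl3l, chr17:24727796-24727845, plus strand: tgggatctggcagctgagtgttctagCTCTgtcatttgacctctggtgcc
The runs are 14 bases in Rpl4, 13 in Rps10, 10 in Rplp2 and in Rpl38, 9 in Rps26, 3 in Rpl41 and in Rps15, and 4 in Rpl3l. Among the first 5, the run of Rpl4 alone lies wholly before the annotated start, outside the annotated transcript. A run is a description of the annotated start, and no match says only that these letters are not at this start.

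Other genes of translation were read beside the ribosomal proteins. Of 24 tested TOP transcripts outside the ribosome, 1 was called lower in the RV (4.17%, against 4.93% of all tested genes). A further 3 were called higher (12.5%, against 10.5%), and both shares are near the background. Tpt1, a growth-related TOP mRNA, stood at 15.5, 21.7, 23.3 and 14.6 FPKM in RV banded libraries, against 49.9, 22.3, 31.0 and 66.7 FPKM in RV sham libraries (-1.04 ± 0.31, SE, limma adjusted p = 0.0312). The groups overlapped only through banded library PS_9561 and the lowest sham library. Those called higher were the non-coding Snhg1 (2.97 ± 0.53) and Snhg5 (1.19 ± 0.32), and Nap1l1 (0.95 ± 0.28, SE, limma adjusted p = 0.00188, 0.0187 and 0.0281). In the LV, 10 of 24 were called higher (41.7%, against 2.44%) and 0 lower (median 1.0005, against 0.33 for all genes), and 7 of 24 were called lower for the difference between the effects (29.2%, against 3.45%).

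Of 12 tested elongation factors, 5 were called higher in the LV (41.7%, against 2.44% of all tested genes): Eef1a1 (1.77 ± 0.26), which brings aminoacyl-tRNA to the ribosome, its exchange factors Eef1b2, Eef1d and Eef1g, and Eef2 (1.03 ± 0.15), which drives translocation (SE, limma adjusted p = 0.00116 for both values). In the RV 0 were called lower (against 4.93% of all tested genes) and 2 higher (16.7%, against 10.5%), too few genes to tell from the background. The 2 were the release factor Etf1 (1.05 ± 0.24) and the recycling factor Abce1 (1.21 ± 0.31, SE, limma adjusted p = 0.00786 and 0.0144). Of 36 initiation factors, 4 were called higher in the RV (11.1%, near the 10.5% of all genes), among them the cap-binding protein Eif4e, and 7 in the LV (19.4%, against 2.44%). For the difference between the effects, 3 elongation (25%) and 6 initiation factors (16.7%) were called lower, against 3.45% of all genes. These lists share genes with the TOP transcripts above, so they are not separate sets. All 5 elongation factors called in the LV, and the initiation factors Eif3e and Eif3h, were also among the TOP transcripts called there. Eef1d, Eef2, Eif3h and Eif3k likewise recur for the difference.

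The fusion gene Fau, which encodes a small-subunit protein, stood at 10.6, 11.6, 17.0 and 8.46 FPKM in RV banded libraries, against 16.4, 17.6, 19.7 and 25.4 FPKM in RV sham libraries (-0.71 ± 0.22, SE, limma adjusted p = 0.035). Only banded library PS_9561 lay above the lowest sham value. Of 40 large-subunit assembly genes, 4 were called higher and 1 lower in the RV, and 1 higher in the LV. Of 50 small-subunit assembly genes, 6 were called higher in the RV and 0 in the LV. These shares were near the background of 10.5% higher in the RV and 2.44% higher in the LV. Of 14 genes of the small nucleolar ribonucleoproteins, 1 was called higher in the RV (Ncl, 7.14%, against 10.5% of all tested genes). Another, Ruvbl2, was called lower there (7.14%, against 4.93%). In the LV 2 were called higher, Nop58 and Ncl (14.3%, against 2.44%). The nucleolar protein Ncl was thus called higher in the RV (1.34 ± 0.28) and in the LV (1.49 ± 0.28, SE, limma adjusted p = 0.00457 and 0.00315). It stood at 16.3, 17.7, 31.3 and 37.9 FPKM in RV banded and 9.70, 7.31, 10.8 and 8.62 FPKM in RV sham libraries, and its groups did not overlap. Of 14 RNA polymerase I genes, 1 was called higher in the RV (Polr1e, 1.01 ± 0.31, SE, limma adjusted p = 0.0344) and 0 in the LV. The RV share was 7.14%, against 10.5% of all tested genes. Of 21 regulators of mTOR signalling and TOP mRNAs, Ssb was called higher in the RV, and Ssb and the translation repressor Eif4ebp1 in the LV (Eif4ebp1 0.99 ± 0.18, SE, limma adjusted p = 0.00276). These shares were 4.76% in the RV, against 10.5% of all tested genes, and 9.52% in the LV, against 2.44%. Of 7 tested Myc family genes, Mxi1 was called higher in either ventricle and Mycn lower in the LV. Each is 14.3% of the 7 genes. Of all tested genes, 10.5% were called higher in the RV, and 2.44% higher and 0.298% lower in the LV.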

How the data were processed

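PolyA RNA of 16 libraries, 4 per group, was analysed from values of 23946 genes. The authors deposited FPKM per library, and per the submitters' processing notes the tools were FastQC 0.11.5, STAR 2.5.3a, Cuffdiff, Cufflinks 2.2.1 and R 3.3.1 on mm9. Their roles, the strand and the treatment of multiple matches are not given in the sources used here. FPKM carry no depth; it was estimated from the lowest values with an assumed fragment length of 200 nt, so no counting interval is given.

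Tests used log2(FPKM + 1) of the 12100 genes that reached 1 FPKM in 4 libraries or more. The filter can drop shallow libraries' low genes, and the pseudocount understates their changes. A limma 3.58.1 fit (R 4.3.3, trended prior) of 4 group means gave 5 comparisons, adjusted by Benjamini-Hochberg over all tested genes. It was repeated on values divided by median-ratio scale factors from 8211 genes at 1 FPKM or more in every library. Paralog ratios were tested by exact permutation. The fit was tested on simulated data. Coding 50-base words and identities came from GENCODE M21 transcripts (GRCm38) with Biopython 1.88 and Python 3.11.15.

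Genes were named by a rule: paralogs and parents, the 5 smallest p-values per direction and comparison, the 5 highest and lowest levels, genes listed at 0 or untested, up to 5 genes per direction without overlap in the RV, the extremes, and up to 2 per direction from each list. Others were named after their values were seen. The members and lists were chosen with earlier results of these data known. Alternatives were other pseudocounts, filters, scalings, sample sets, a replicate block and leaving out single libraries; the restriction to genes with at most 75% of shared words was chosen after seeing the data. Some genes are not reported here.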

Additional observations from a re-analysis of the deposited data

Results flagged for a closer look

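Among groups of 4 libraries of the named genes, 156 in all, a single library stood far from the other 3 in 13 cases by Dixon's criterion. Chance flags about 1 in 20 groups of normally distributed values. That rate does not hold where the other 3 libraries are all at 0, since any value above 0 is then flagged. This was so for Rpl10, Rps27, Rps29 and Rpl22l1 in RV sham, Rpl24 in LV banded and Rpl3 in LV sham libraries. No excess over chance can be read from the 13 cases. In RV banded libraries these were Rpl13a in library PS_9561 (180.2 FPKM), Rpl8 in library PS_9564 (183 FPKM) and Rps29 in library PS_9552 (36.8 FPKM). In RV sham libraries, library 1 stood apart for Rpl10 (2.88 FPKM), Rpl41 (608 FPKM), Rps27 (2.09 FPKM) and Rps29 (31.2 FPKM), and library 3 for Rpl22l1 (5.46 FPKM). In LV banded libraries, Rpl13a was low in library PS_9564 (184 FPKM) and Rpl24 stood apart in library PS_9561 (0.342 FPKM). All these values are as deposited and carry differences in scale between libraries. The scale factor was 0.976 in LV banded library PS_9564 and 1.23 to 1.28 in the other LV banded libraries, and its part was not tested. In LV sham libraries, library 4 was high for Rpl8 (339.8 FPKM) and Rps9 (358 FPKM), and library 2 for Rpl3 (0.353 FPKM).

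The effect of banding differed between the ventricles for 27 ribosomal protein genes by limma's test of the difference itself. Among the genes named by rule, that difference on the log2 scale, RV minus LV, was -1.29 for Rpl13a, -1.53 for Rpl3l and -1.69 for Rps9. It was -1.83 for Rpl8, -1.86 for Rps21, -1.92 for Rps15, -2.04 for Rplp1, -2.06 for Rps26, -2.07 for Rpl41, -2.13 for Rplp2, -2.16 for Rps7, -2.37 for Rps10 and -2.40 for Rps14. The causes were not tested.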

How the results depend on the processing

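Besides the omission of single libraries, 119 of the values recomputed under other settings kept their direction and stayed close to the reported value, 29 moved, 5 lost their call and 3 changed sign. The causes were not tested. The RV median changed sign with a pseudocount of 0.1 (0.026), with scaling to equal sums (0.32) and without RV banded library PS_9552 (0.012), and the sham median with scaling to equal sums (-0.040). With that scaling 12 genes were called higher and 1 lower in the RV, beside 5679 higher and 142 lower among all genes. In the LV 4 were called higher, beside 64 higher and 13 lower among all genes. For the difference 4 were called lower (median -0.63), beside 726 higher and 28 lower among all genes. Between sham ventricles 1 was called higher and 5 lower, beside 38 higher and 2970 lower, and between banded ventricles 0 (0 of all genes). Medians under quantile normalization were 0.70 in the LV, -0.93 for the difference and -0.62 between banded ventricles (6 genes called), and after correction for length and GC content 0.65, -0.98 and -0.63, with 19 genes called in the RV. The LV count was 42 as deposited alone, beside 1725 of all genes called higher. The LV median was 0.84 rescaled and 0.85 with scale factors from other genes, and the median difference was -1.60 at a minimum of 5 FPKM. Fewer ribosomal protein genes and fewer of all genes were called in the RV and between sham ventricles with libraries that have an Rn45s value. These libraries (2 RV banded and 1 LV banded) gave medians of -0.24 in the RV and 0.48 between sham ventricles. In the other comparisons they gave 0 of 63 ribosomal protein genes and 0 of all 11416 genes, with medians of 0.99, -1.26 and -0.71, so the loss says nothing about these genes. Their Rpl3l to Rpl3 ratios were -1.60 in the RV and -1.39 between banded ventricles, where so few libraries cannot pass the threshold (smallest possible exact permutation p = 0.0667 and 0.333). With all libraries the banded ratio was -1.06 and not called after adjustment (exact permutation p = 0.0286, adjusted p = 0.143). It was -1.12 and likewise not called at a pseudocount of 0.1. Fits to the compared groups alone called 6 genes lower in the RV, beside 488 higher and 322 lower among all genes. Between sham ventricles such a fit called 0, beside 22 higher and 18 lower among all genes. Genes with at most 75% of shared words, a restriction chosen after seeing the data, gave 7 genes in the RV (median -0.38), 17 for the difference (median -1.61) and 6 between sham ventricles.

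Leaving out each library in turn gave 8 to 15 genes called in the RV, 4 to 26 in the LV, 22 to 32 for the difference, 3 to 16 between sham and 1 to 12 between banded ventricles. The medians ran between -0.23 and 0.012, 1.13 and 1.34, -1.41 and -1.23, 0.33 and 0.57, and -1.04 and -0.85 in the same order. In the LV, 34 to 503 of all genes were called higher in these fits. The Rpl3l to Rpl3 ratio ran between -1.45 and -1.21 in the RV and 0.13 and 0.45 in the LV. It ran between -1.78 and -1.46 for the difference, 0.41 and 0.70 between sham and -1.19 and -0.87 between banded ventricles. With all libraries the sham ratio was not called after adjustment (exact permutation p = 0.0286, adjusted p = 0.143). It lost its unadjusted call without RV sham library 4 or any LV sham library.

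Libraries of the ventricles share numbers, but same-numbered libraries correlated at -0.0964 to 0.16 in their deviations from group means, above 0.1 in 1 of 8 pairs, and 1 of 8 resembled its own number best, so they were not treated as pairs. With a replicate block by library number the counts were 12, 20, 26, 9 and 18 in the order above, and the Rpl3l to Rpl3 ratio was 0.59 between sham and -1.06 between banded ventricles as before (exact p = 0.125 for both, the smallest that 4 pairs allow, so no call was possible). Depth limits the low genes most, above all in RV sham libraries.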

Other observations

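Rows for some ribosomal protein pseudogenes also carried values. Averaged over the 16 libraries, Rpl14-ps1 stood at 3.99 FPKM, Rplp2-ps1 at 2.83 FPKM, Rps19-ps3 at 2.46 FPKM, Rps15a-ps6 at 0.679 FPKM and Rps15a-ps4 at 0.122 FPKM, while Rpl31-ps12, Rpl34-ps1 and Rps27rt were listed at 0. The number of ribosomal protein genes listed at 0 in a library was 7 to 18 in RV banded, 20 to 35 in RV sham, 6 to 11 in LV banded and 12 to 21 in LV sham libraries. RV sham libraries also had the lowest estimated depths, whose part in this was not tested.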
